A study of Mus musculus with 12 samples.

Results

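The nuclear pore genes, the genes of the karyopherin transport receptors and the genes of the Ran cycle were examined in neural stem/progenitor cells (NSPCs) of wild-type and Ythdf2-/- mice. Members were found by gene symbol: every row of the count tables named Nup or Nupl with a number, Ipo, Xpo, Tnpo or Kpna and Kpnb, together with Ran, Rangap1, Ranbp2, Tpr, Pom121, Ndc1 and Nxf1. The rule used no measured value. It found 53 of 24525 genes, of which 51 were among the 13112 genes that passed the filter on low counts. NSPCs were grown as neurospheres, floating cultures of dividing progenitors, from E14.5 brains of C57BL/6 embryos, and were taken at passage 1. All cultures received EGF at 20 ng/ml and bFGF at 10 ng/ml with N2 and B27 supplements, and no other treatment. The wild-type group had 3 libraries and the Ythdf2-/- group had 3, each the input RNA of an m6A-IP experiment. The m6A-IP libraries themselves were not analysed here. The Ythdf2-/- embryos came from crosses between heterozygotes in which LoxP sites around the 5′ UTR and exon 1 had been recombined by a ubiquitously expressed Cre, so every cell of the embryo carried the deletion. The study's text calls the libraries biological replicates, the labels do not say whether they came from separate embryos, and p-values measure the spread between these libraries.

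The nuclear pore complex is a large channel through the nuclear envelope built from many copies of each of the proteins called nucleoporins. Outer and inner rings form the scaffold, membrane nucleoporins anchor it, and nucleoporins rich in phenylalanine-glycine (FG) repeats fill the channel. Importins carry cargo into the nucleus and exportins carry it out, and the direction is set by the GTPase Ran, which is bound to GTP in the nucleus and to GDP in the cytoplasm. Dividing cells must build new pores in each cell cycle, and several nucleoporins and import receptors also act at the mitotic spindle and the kinetochores. YTHDF2 is a cytoplasmic reader of N6-methyladenosine (m6A) that speeds the decay of the mRNAs it binds.

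The libraries held between 11029827 and 13185778 counted reads. Levels are given as CPM, the reads of a gene relative to the reads of its library on genes that passed the filter, after TMM scaling with factors of 0.988 to 1.03. For Ythdf2, the wild-type libraries gave 71.9, 73.3 and 91.4 CPM in replicate order and the Ythdf2-/- libraries gave 11.7, 14.7 and 11.1 CPM, and the 2 groups did not overlap (log2 fold change -2.66, SE 0.183, edgeR adjusted p = 0.0547). Wild-type replicate 3 stood apart from the other libraries, with a mean Spearman correlation of 0.900 with them across genes, against 0.962 to 0.970 for each of the rest. Its summed level of 14 proliferation markers was 166 CPM, against 3565 and 3191 CPM in wild-type replicates 1 and 2 and 2381, 2737 and 2617 CPM in the Ythdf2-/- libraries, and all 14 markers were lowest in it. Its summed level of 7 astrocyte markers was 7758 CPM against 1474 to 3563 CPM in the other libraries, that of 10 neuron markers 2601 against 1343 to 1767 CPM, that of 10 oligodendrocyte lineage markers 4250 against 1732 to 2164 CPM, and that of 12 neural progenitor markers 4300 against 5322 to 7205 CPM. Not every marker followed its sum. Wild-type replicate 3 was the lowest library in 3 of the 12 progenitor markers and in 3 of the 8 oligodendrocyte lineage markers tested. It was lowest in 0 of the neuron and astrocyte markers, where it was lowest in 34.4% of all genes tested. Microglia markers summed to 1.13 to 1.55 CPM and endothelial markers to 1.01 to 3.51 CPM. Reads on Y-linked genes were present in wild-type replicates 1 and 2 and in Ythdf2-/- replicate 3 only. Comparisons that rest on wild-type replicate 3 are therefore given with and without it, and those of all members tested are in the plot of fold changes.

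The share of reads that fell on the members was 0.733%, 0.688% and 0.475% for wild-type replicates 1, 2 and 3, against 0.609%, 0.618% and 0.650% for the Ythdf2-/- libraries. Wild-type replicate 3 thus had the lowest share of reads on these genes and wild-type replicates 1 and 2 the highest, with the Ythdf2-/- libraries between them. Gene by gene, wild-type replicate 3 was the lowest of the 6 libraries in 34 of the 51 members tested (66.7%), against 34.4% of all genes tested, and the highest in 6 (11.8%), against 33.8% of all genes. In 14 members (27.5%) its level was at most 50% of the mean of wild-type replicates 1 and 2, against 13.0% of all genes. The median log2 ratio of wild-type replicate 3 to that mean was -0.55 over the members and 0.01 over all genes tested. The proliferation markers named above moved with these genes, and their part in the result was not tested. In bulk RNA, fewer cells of a type and less RNA per cell cannot be told apart.

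**Figure D1:**
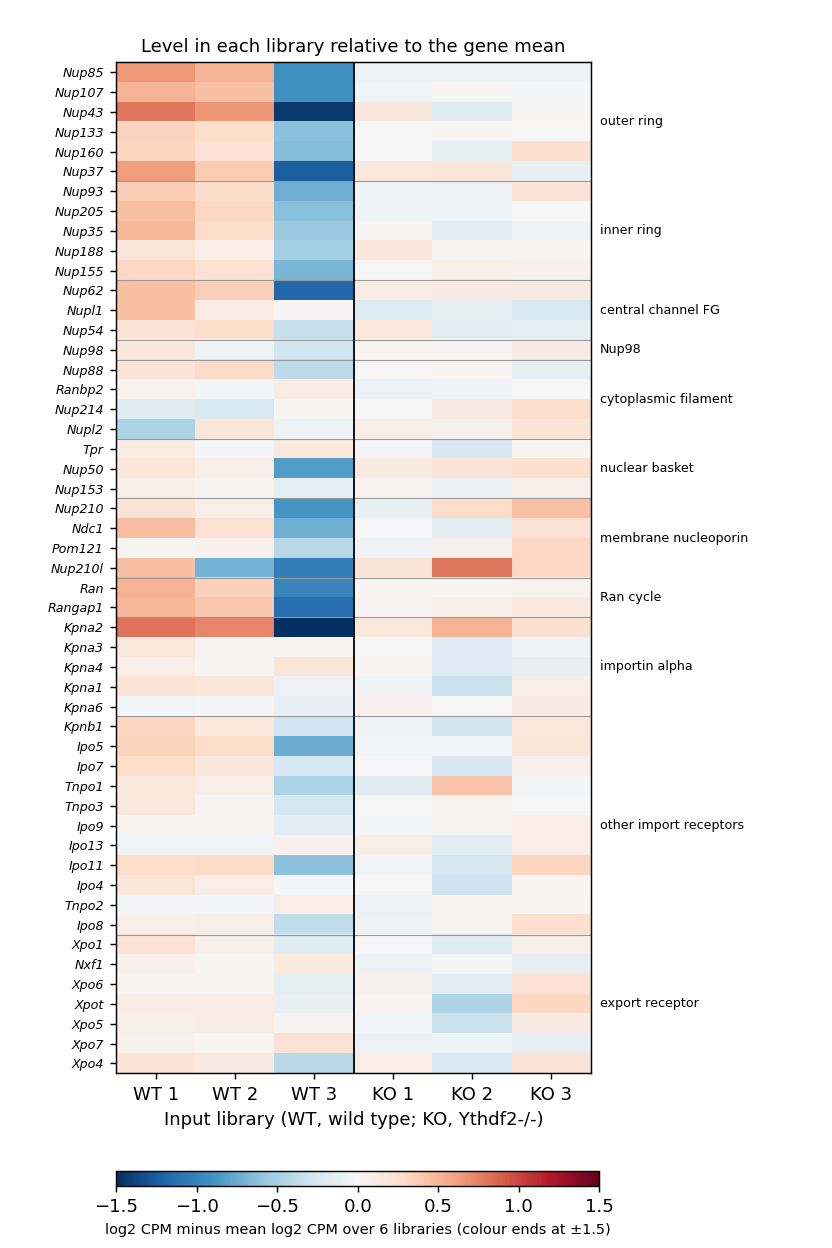
Heat map of the 51 members tested, grouped by role and ordered by level per transcript length, in the 6 input libraries (WT, wild type; KO, Ythdf2-/-). Colour is log2 CPM minus the gene's mean over the 6 libraries; the column of wild-type replicate 3 is blue in most rows of the outer ring, the inner ring and the Ran cycle, while Ranbp2, Tpr, Kpna4, Tnpo2, Nxf1 and Xpo7 are highest there.

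The stretches of 150 bases upstream of the annotated start of 4 members are shown for genes on either side of this pattern. Kpna2 had the lowest relative level in wild-type replicate 3, Ran was the most abundant member per transcript length and also low there, and Ranbp2 and Nxf1 had their highest level in that library. These 4 were chosen after their values were seen. The sequences are RefSeq promoters on GRCm38.p6, the assembly also called mm10, written 5′ to 3′ on the gene's strand and ending at the base before the start. Capitals mark matches to 6 motifs searched on both strands. These were the CCAAT box, the CHR element with the letters TTTGAA, an NRF1-type core with the letters GCATGCGC, an ETS-type site with the letters CCGGAAG, the TATA box with the letters TATAAA, and an E box with the letters CACGTG.
Kpna2 (chr11:106999526-106999675, minus strand): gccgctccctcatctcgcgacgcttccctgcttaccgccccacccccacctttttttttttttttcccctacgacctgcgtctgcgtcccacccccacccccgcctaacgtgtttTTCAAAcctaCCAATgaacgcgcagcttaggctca
Ran (chr5:129020006-129020155, plus strand): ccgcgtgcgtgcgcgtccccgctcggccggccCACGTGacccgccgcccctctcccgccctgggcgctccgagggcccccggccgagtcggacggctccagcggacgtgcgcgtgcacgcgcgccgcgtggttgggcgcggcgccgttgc
Ranbp2 (chr10:58446702-58446851, plus strand): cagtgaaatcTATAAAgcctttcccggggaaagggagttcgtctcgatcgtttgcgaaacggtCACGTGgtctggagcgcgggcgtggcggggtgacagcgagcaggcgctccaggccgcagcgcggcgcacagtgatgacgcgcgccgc
Nxf1 (chr19:8756953-8757102, plus strand): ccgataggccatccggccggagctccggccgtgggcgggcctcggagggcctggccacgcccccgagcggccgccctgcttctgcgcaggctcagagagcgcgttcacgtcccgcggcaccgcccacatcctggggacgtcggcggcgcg
The Kpna2 stretch held TTCAAA, which is TTTGAA on the other strand and CCAAT a few bases closer to the start. Ran and Ranbp2 each held CACGTG, which reads the same on both strands, and Ranbp2 also held TATAAA. Nxf1 held none of the 6. Over the RefSeq windows from 250 bases before to 50 after the start, 44 members matched, with 52 promoters. CCAAT was in 48.1% of those and in 37.4% of all 32851 promoters, TTTGAA in 23.1% and 17.9%, GCATGCGC in 11.5% and 2.71%, CCGGAAG in 13.5% and 8.86%, TATAAA in 9.62% and 13.6%, and CACGTG in 17.3% and 7.15%. These are matches of letters, given as a description.

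Per transcript length most members lay above the typical gene. Their median level was 19.7 RPKM (CPM divided by the transcript length in kilobases, from the raw counts), against 11.1 RPKM over all genes tested, and 42 of the 51 lay above that median. Ran was the highest at 188 RPKM, followed by Kpna2 at 122 RPKM, the import receptors Kpnb1 and Ipo5 at 84.1 and 78.3 RPKM, and Rangap1 at 70.7 RPKM. On the same scale the genes of the scaffold rings ran from 8.23 RPKM for Nup155 to 29.3 RPKM for Nup85, while the import receptors other than importin alpha ran from 15.6 to 84.1 RPKM. The lowest member tested was Nup210l, a relative of the membrane nucleoporin Nup210, at 0.289 RPKM and 8 to 35 reads per library. Below the filter were Nup62cl, with 2 to 8 reads per library, and the importin alpha gene Kpna7, with 0 reads in all 6 libraries. Rasl2-9, a gene nearly identical to Ran with which reads could be shared, held 0 to 6 reads per library.

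**Figure D2:**
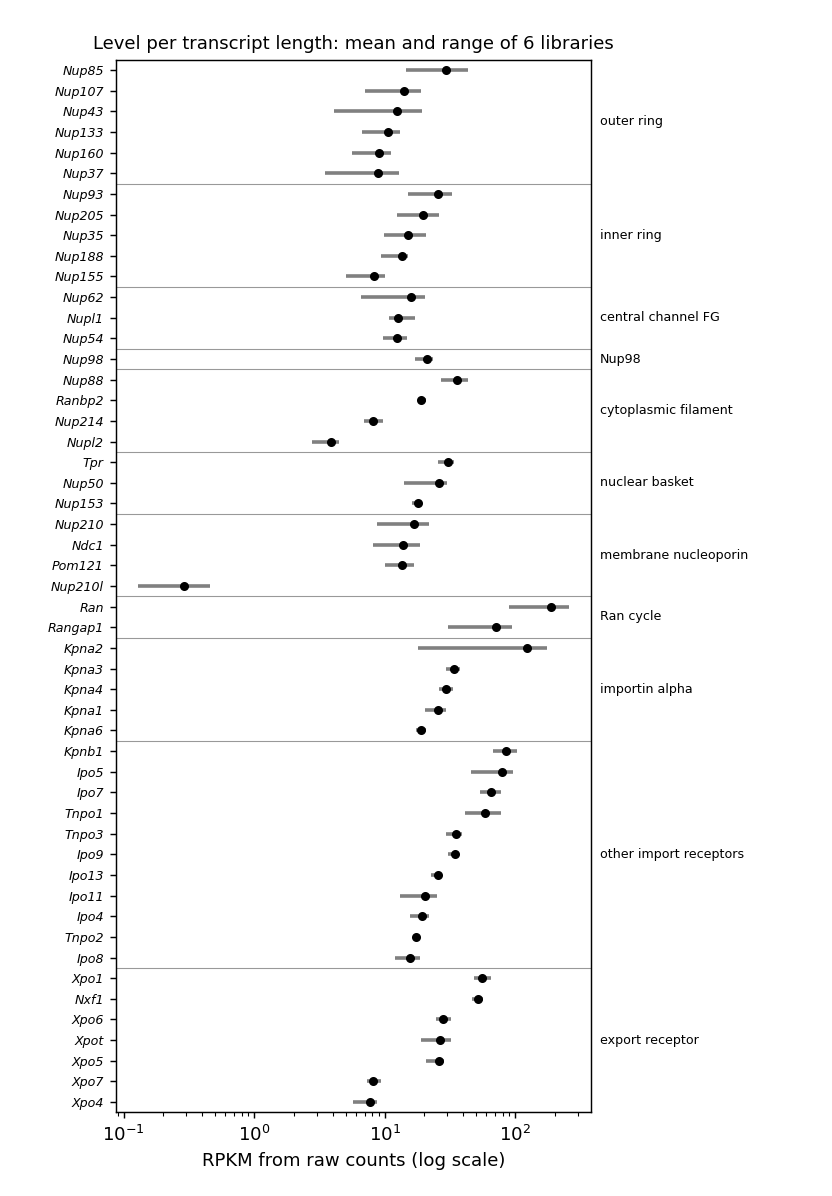
Level per transcript length of the 51 members tested, in RPKM on a log axis; points are the mean of the 6 libraries and bars run from the lowest to the highest library. Ran, Kpna2, Kpnb1, Ipo5 and Rangap1 are the 5 highest, and the bar of Kpna2 is the longest among the abundant genes.

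Over all 6 libraries, no member differed between genotypes past the adjusted threshold. Of the 51 members, 22 were higher and 29 lower in Ythdf2-/-, with fold changes from -0.40 to 0.73 on the log2 scale and a median of -0.03, against -0.01 over all genes tested. None had an edgeR adjusted p under 0.05 (the smallest was 0.999), as was so for 0.00% of all genes, and DESeq2 also gave 0 members past that threshold, where 0.236% of all genes passed it. One member, Nupl1, had an unadjusted p under 0.05, where 3.63% of all genes did, and DESeq2 also found 1 member, on the lower side, where 2.36% of all genes were. The log2 fold change was smaller than its own SE in 36 members. Without overlap between the groups, 4 members (7.84%) were lower in Ythdf2-/-, namely Nupl1, Nxf1, Xpo7 and Kpna3, against 4.92% of all genes, and 1 (1.96%), Kpna6, was higher, against 5.24%. With 3 libraries in each group, an exact permutation test of a single gene cannot give a p below 0.1.

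Set against wild-type replicates 1 and 2 alone, most members were lower in the Ythdf2-/- libraries, and with a term for Y-linked reads most were higher. Without wild-type replicate 3, 40 of 51 members were lower and 11 higher, with a median log2 fold change of -0.18, against 0.01 over all genes. In that fit 13 members had an unadjusted edgeR p under 0.05 on the lower side, where 8.58% of all genes did, and 1 on the higher side, where 8.03% did. None passed an adjusted p of 0.05, the smallest being 0.151. In 25 members (49.0%) all 3 Ythdf2-/- libraries lay below both of these wild-type libraries, against 20.0% of all genes, and in 2 (3.92%), Kpna6 and Nup214, all 3 lay above, against 18.9%. Both of these wild-type libraries held Y-linked reads and only 1 of the 3 Ythdf2-/- libraries did, so genotype and Y-linked reads went largely together here. In an edgeR fit of all 6 libraries with a term for the presence of Y-linked reads, 38 of 51 members were higher and 13 lower, with a median of 0.16, against 0.01 over all genes. There, wild-type replicate 3 was the only wild-type library without Y-linked reads, set beside Ythdf2-/- replicates 1 and 2. The fit thus leans on that library, and its part in the result was not tested. The 14 proliferation markers were all lower in Ythdf2-/- without wild-type replicate 3, 9 of them at an unadjusted p under 0.05, with a median of -0.49, and their part in the members' difference was not tested. With limma-voom and sample quality weights, which gave wild-type replicate 3 a weight of 0.0901, 43 members were lower and 8 higher. In that fit 16 members had an unadjusted p under 0.05 on the lower side, where 14.4% of all genes did, and 1 on the higher side, where 15.5% did, and 1 member, Nup85, passed an adjusted p of 0.05, where 4.82% of all genes did.

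**Figure D3:**
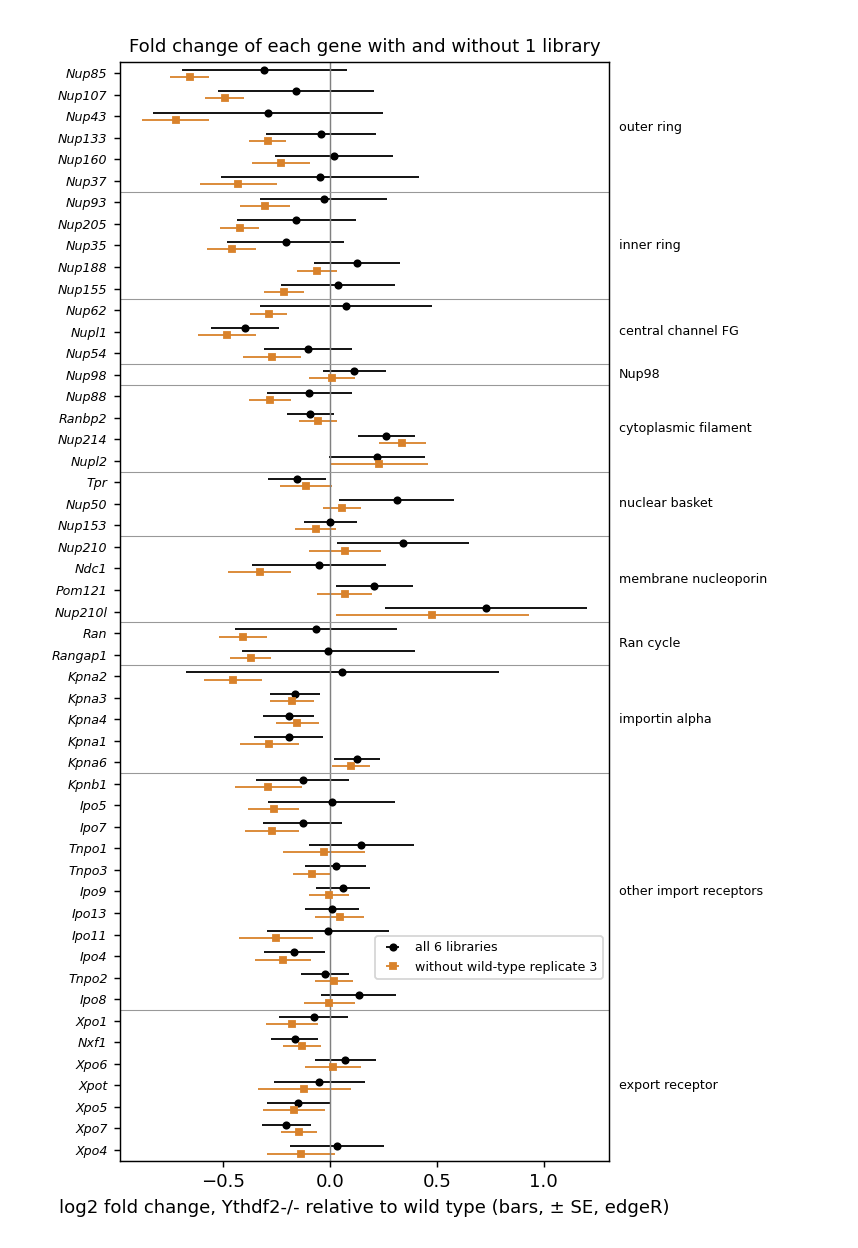
Log2 fold change of each member tested, Ythdf2-/- relative to wild type, with bars of ± 1 SE from edgeR; black points use all 6 libraries and orange squares leave out wild-type replicate 3. With all libraries the points lie on both sides of 0 (22 higher, 29 lower), and without that library 40 of 51 lie below 0, furthest for the outer ring genes Nup43 and Nup85.

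The summed level of the outer ring genes found by the symbol rule was lower in the Ythdf2-/- libraries than in wild-type replicates 1 and 2. The outer ring, or Y-complex, coats the pore on both faces, and 6 of its subunits were members: Nup85, Nup107, Nup133, Nup160, Nup43 and Nup37. They summed to 333, 309.5 and 134 CPM over the wild-type libraries and to 236, 230.3 and 242 CPM over the Ythdf2-/- libraries. All 6 were lowest in wild-type replicate 3, and their sum there was 41.8% of that in wild-type replicates 1 and 2, while the Ythdf2-/- mean was 73.5%. Seh1l and Sec13, which also encode Y-complex subunits but are outside the rule, lay nearer to those libraries than this sum. On the same scale, wild-type replicate 3 was at 70.8% and 68.3% and the Ythdf2-/- mean at 85.2% and 82.8%. For Nup85 (chr11:115564432-115583924, plus strand, 19 exons), the CPM values were 93.5, 84.9 and 31.6 in wild-type replicates 1 to 3 and 56.8, 56.5 and 56.5 in Ythdf2-/- replicates 1 to 3. The Ythdf2-/- libraries were nearly level and lay between the wild-type ones, so the groups overlapped (70.0 ± 33.6 against 56.6 ± 0.175 CPM, SD, n = 3 each), and the log2 fold change was -0.31 (SE 0.385, edgeR adjusted p = 0.999). Without wild-type replicate 3 it was -0.66 (SE 0.0911, edgeR unadjusted p = 0.000306, adjusted p = 0.151), and with quality weights in limma-voom it was -0.62 with an adjusted p of 0.0458. In the other outer ring genes, too, the Ythdf2-/- means lay between wild-type replicate 3 and the mean of wild-type replicates 1 and 2. For Nup107, wild-type libraries 1, 2 and 3 held 58.8, 56.1 and 21.8 CPM and Ythdf2-/- libraries 1, 2 and 3 held 40.1, 41.8 and 40.6 CPM. Nup43 held 25.0, 22.8 and 5.31 CPM in the wild-type and 16.2, 12.7 and 14.6 CPM in the Ythdf2-/- libraries, with a log2 fold change of -0.29 (SE 0.538) with all libraries and -0.72 (SE 0.156) without wild-type replicate 3. In that fit all 6 genes were lower, with a median of -0.46, and 4 (Nup85, Nup107, Nup43 and Nup133) had an unadjusted p under 0.05, where 8.58% of all genes did on the lower side with an overall median of 0.01. The direction depended on the fit: with the Y-linked term all 6 were higher in Ythdf2-/-. Their log2 fold changes there ran from 0.0839 for Nup85 to 0.35 for Nup37, each at an edgeR unadjusted p of 0.178 or above. Nup133 shares 729 bases of its exons with the opposite-strand genes Gm29773 and Gm45890, the most among the members.

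As sums, the inner ring genes showed the same order of libraries with smaller differences. The inner ring lines the channel, and its members were Nup93, Nup205, Nup188, Nup155 and Nup35. All 5 were lowest in wild-type replicate 3, at a summed level of 52.3% of wild-type replicates 1 and 2, and the Ythdf2-/- mean was 81.2%. For Nup93, which links the ring to the channel nucleoporins, the wild-type libraries gave 94.9, 89.3 and 43.9 CPM in replicate order and the Ythdf2-/- libraries gave 70.3, 69.0 and 84.2 CPM. The genotypes overlapped and their means were nearly equal, with a log2 fold change of -0.03 (SE 0.298), and without wild-type replicate 3 the value was -0.31 (SE 0.119, edgeR adjusted p = 0.282). In that fit all 5 were lower, Nup205, Nup35 and Nup93 at an unadjusted p under 0.05 against the same share of all genes, and Nup188 was the nearest to 0 at -0.06 (SE 0.0945). Here too the direction depended on the fit: with the Y-linked term all 5 were higher, from 0.0125 for Nup35 to 0.26 for Nup93. Each was at an edgeR unadjusted p of 0.229 or above.

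In the central channel, Nup62, Nup54 and Nupl1 encode the partners of the FG complex that forms much of the permeability barrier. For Nupl1 (chr14:60205284-60251479, minus strand), whose protein is also known as Nup58, the CPM values were 41.0, 32.4 and 30.4 in wild-type replicates 1 to 3 and 26.0, 27.1 and 25.6 in Ythdf2-/- replicates 1 to 3. All 3 Ythdf2-/- libraries lay below all 3 wild-type libraries, and wild-type replicate 3 was close to wild-type replicate 2. Nupl1 had the lowest log2 fold change of the members, -0.40 (SE 0.160, edgeR unadjusted p = 0.0445, adjusted p = 0.999), and without wild-type replicate 3 it was -0.48 (SE 0.136, edgeR unadjusted p = 0.0113, adjusted p = 0.210). The unadjusted call did not hold on leaving out any other library, and without wild-type replicate 1, the highest library, the value was -0.26 (edgeR unadjusted p = 0.171). For Nup62, wild-type libraries 1, 2 and 3 held 75.9, 72.0 and 24.6 CPM and Ythdf2-/- libraries 1, 2 and 3 held 60.3, 60.4 and 61.0 CPM. Wild-type replicate 3 was at 33.3% of the other wild-type libraries, the Ythdf2-/- libraries were nearly level, and the log2 fold change was 0.07 (SE 0.402) with all libraries and -0.29 (SE 0.0869, edgeR unadjusted p = 0.0153, adjusted p = 0.225) without it. Nup62 shares 82 bases of exon sequence with Atf5 on the other strand, and the strand setting of the counting is not given in the sources used here. Nup54 held 22.6 to 34.6 CPM in the wild-type and 25.8 to 32.0 CPM in the Ythdf2-/- libraries.

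Nup98, an FG nucleoporin found on both faces whose transcript also encodes the outer ring protein Nup96, had similar levels in both genotypes. For Nup98, the wild-type libraries gave 102, 85.9 and 74.1 CPM in replicate order and the Ythdf2-/- libraries gave 92.7, 92.6 and 98.2 CPM. The groups overlapped, and the log2 fold change was 0.11 (SE 0.148, edgeR adjusted p = 0.999) with all libraries and 0.01 (SE 0.108) without wild-type replicate 3.

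The cytoplasmic filament genes and the nuclear basket genes varied least as sums. The filaments, formed with Nup88, Nup214, Ranbp2 and Nupl2, receive export complexes on the cytoplasmic face, and their summed level lay between 335 and 353 CPM in all 6 libraries. For Nup88, the CPM values were 100, 106 and 66.0 in wild-type replicates 1 to 3 and 86.9, 88.6 and 78.4 in Ythdf2-/- replicates 1 to 3. Wild-type replicate 3 was the lowest library, and the log2 fold change was -0.10 (SE 0.199) with all libraries and -0.28 (SE 0.0977, edgeR adjusted p = 0.251) without it. Nup88 shares 48 bases of exon sequence with Rabep1 on the other strand. Its partner Nup214 leaned the other way. For Nup214, wild-type libraries 1, 2 and 3 held 58.5, 56.7 and 66.9 CPM and Ythdf2-/- libraries 1, 2 and 3 held 66.6, 72.3 and 79.5 CPM. Ythdf2-/- replicate 1 lay just below wild-type replicate 3, so the groups overlapped in 1 library, and the log2 fold change was 0.26 (SE 0.132, edgeR unadjusted p = 0.0918, adjusted p = 0.999) with all libraries and 0.34 (SE 0.109, edgeR unadjusted p = 0.0201, adjusted p = 0.235) without wild-type replicate 3. Nup214 was the only member with an unadjusted p under 0.05 on the higher side in that fit, and it shares 628 bases of its exons with the opposite-strand genes Fam78a, Gm13609 and Gm16534. Ranbp2, the large filament protein that holds SUMO-modified Rangap1, had its highest level in wild-type replicate 3. For Ranbp2, the wild-type libraries gave 186, 177 and 194 CPM in replicate order and the Ythdf2-/- libraries gave 169.6, 174 and 179 CPM. Its groups overlapped, with a log2 fold change of -0.09 (SE 0.112) with all libraries and -0.06 (SE 0.0887) without wild-type replicate 3.

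The nuclear basket, the filaments on the inner face, was represented by Tpr, Nup153 and Nup50, which summed to 422 to 499 CPM. For Tpr, the large coiled-coil protein of the basket, the CPM values were 248, 224 and 257 in wild-type replicates 1 to 3 and 226, 194 and 236 in Ythdf2-/- replicates 1 to 3. Wild-type replicate 3 was the highest library, the groups overlapped, and the log2 fold change was -0.15 (SE 0.137, edgeR adjusted p = 0.999). Tpr shares 380 bases of exon sequence with genes on the other strand. For Nup153, which anchors Tpr, wild-type libraries 1, 2 and 3 held 115, 113 and 97.9 CPM and Ythdf2-/- libraries 1, 2 and 3 held 110.3, 101 and 115 CPM. Its means were nearly identical (108 ± 9.22 against 109 ± 7.13 CPM, SD, n = 3 each), with a log2 fold change of 0.00 (SE 0.124), among the 3 values nearest to 0, and of -0.07 (SE 0.0955) without wild-type replicate 3. For Nup50, a mobile nucleoporin that helps importins release cargo, the wild-type libraries gave 136, 127 and 67.1 CPM in replicate order and the Ythdf2-/- libraries gave 131, 137 and 142 CPM. Only wild-type replicate 3 departed from the rest, at 51.0% of the other wild-type libraries. The log2 fold change of 0.31 (SE 0.269) with all libraries was 0.06 (SE 0.0906) without it.

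Among the membrane nucleoporins, which anchor the pore in the nuclear envelope, the summed Ythdf2-/- level lay around that of wild-type replicates 1 and 2. The sum over Nup210, Ndc1, Pom121 and Nup210l was 258, 242 and 139 CPM in the wild-type and 214, 249.7 and 289.6 CPM in the Ythdf2-/- libraries. For Nup210, the CPM values were 131, 122 and 61.4 in wild-type replicates 1 to 3 and 106, 138 and 154 in Ythdf2-/- replicates 1 to 3. The Ythdf2-/- libraries spread around wild-type replicates 1 and 2, and the log2 fold change was 0.34 (SE 0.310, edgeR adjusted p = 0.999) with all libraries and 0.07 (SE 0.167) without wild-type replicate 3. For Nup210l, wild-type libraries 1, 2 and 3 held 2.05, 0.916 and 0.732 CPM and Ythdf2-/- libraries 1, 2 and 3 held 1.71, 2.59 and 1.85 CPM. Its log2 fold change of 0.73 (SE 0.473, edgeR adjusted p = 0.999) was the highest of the members and rests on few reads. It was 1.30 (edgeR unadjusted p = 0.0293, adjusted p = 0.993) without wild-type replicate 1 and 0.48 without wild-type replicate 3. For Ndc1, the wild-type libraries gave 47.8, 40.5 and 20.8 CPM in replicate order and the Ythdf2-/- libraries gave 34.4, 30.9 and 40.1 CPM. Its groups overlapped, and its log2 fold change of -0.05 (SE 0.314, edgeR adjusted p = 0.999) was the only one of the group below 0. Without wild-type replicate 3 all 3 Ythdf2-/- libraries lay below both wild-type libraries, at -0.33 (SE 0.148, edgeR adjusted p = 0.327), and with the Y-linked term the value was 0.25. Nup210 and Pom121 were the 2 members past an unadjusted p of 0.05 in the edgeR fit with the Y-linked term, both higher, where 5.23% of all genes were, at log2 fold changes of 0.64 and 0.35, and neither passed the adjusted threshold.

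**Figure D4:**
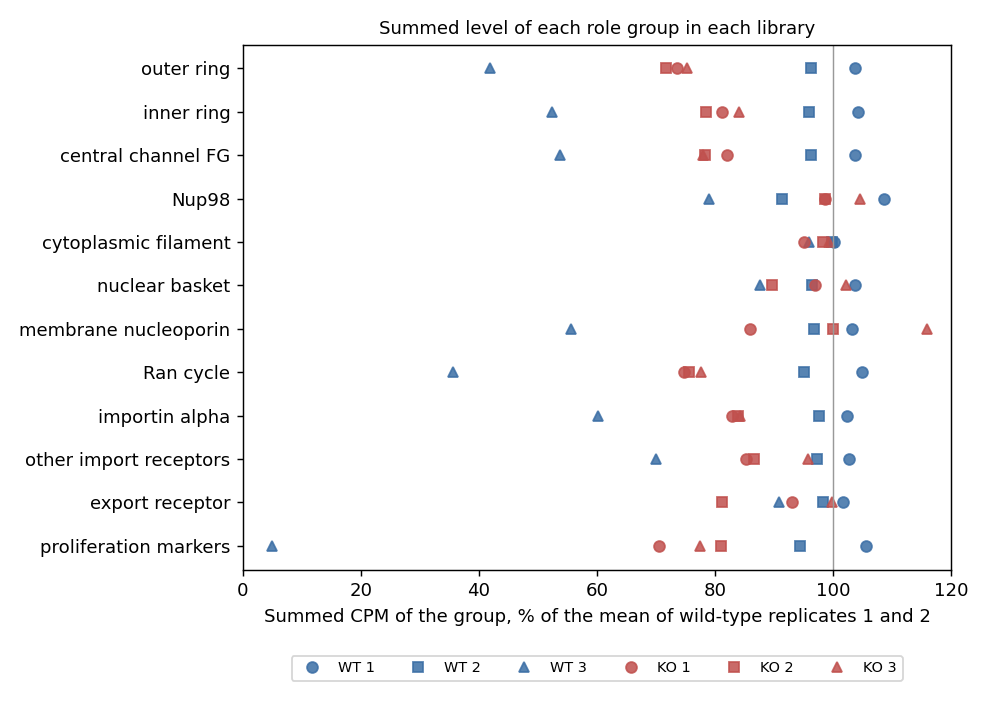
Summed CPM of each role group in each library as a percentage of the mean of wild-type replicates 1 and 2 (vertical line at 100), with the 14 proliferation markers as the last row; circles, squares and triangles are replicates 1, 2 and 3, blue for wild type and red for Ythdf2-/-. The triangle of wild-type replicate 3 lies at 35.7% for the Ran cycle, 41.8% for the outer ring, 95.8% for the cytoplasmic filaments and 4.90% for the proliferation markers.

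Ran was the most abundant member per transcript length, and both Ran cycle genes varied widely between the wild-type libraries. Ran (chr5:129020156-129024322, plus strand, 6 exons) encodes the GTPase itself. For Ran, the CPM values were 590.2, 527 and 206 in wild-type replicates 1 to 3 and 419, 419 and 425 in Ythdf2-/- replicates 1 to 3. Wild-type replicate 3 was at 36.9% of the other wild-type libraries and the Ythdf2-/- libraries lay within a narrow band between them (441 ± 206 against 421 ± 3.44 CPM, SD, n = 3 each). The log2 fold change was -0.07 (SE 0.379, edgeR adjusted p = 0.999) with all libraries and -0.41 (SE 0.112, edgeR unadjusted p = 0.0100, adjusted p = 0.203) without wild-type replicate 3. Rangap1 encodes the activating protein that makes Ran hydrolyse GTP on the cytoplasmic side. For Rangap1, wild-type libraries 1, 2 and 3 held 278, 261 and 89.3 CPM and Ythdf2-/- libraries 1, 2 and 3 held 199.8, 207 and 218 CPM. Wild-type replicates 1 and 2 were again the highest libraries and wild-type replicate 3 the lowest, and the means were level (209 ± 104 against 208 ± 9.10 CPM, SD, n = 3 each). The log2 fold change was -0.01 (SE 0.407) with all libraries and -0.37 (SE 0.0963, edgeR unadjusted p = 0.00783, adjusted p = 0.194) without wild-type replicate 3. With the Y-linked term both genes turned the other way, to 0.31 (SE 0.350) for Ran and 0.44 (SE 0.359) for Rangap1. Rangap1 shares 65 bases of exon sequence with Zc3h7b on the other strand. The proliferation markers stood at 4.90% of wild-type replicates 1 and 2 in wild-type replicate 3 and at 76.3% in the Ythdf2-/- mean, between the other wild-type libraries and wild-type replicate 3 as for both genes, and their part in the result was not tested.

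The importin alpha genes encode adaptors that bind the classical nuclear localization signal and hand the cargo to importin beta. Kpna2 (chr11:106988629-106999525, minus strand, 11 exons) had the widest spread between wild-type libraries relative to its mean. For Kpna2, the wild-type libraries gave 357, 337 and 36.8 CPM in replicate order and the Ythdf2-/- libraries gave 227, 292 and 240.5 CPM. In wild-type replicate 3 it was at 10.6% of the other wild-type libraries, the lowest such value of the members tested, which widened the wild-type group (244 ± 179 against 253 ± 34.3 CPM, SD, n = 3 each). The log2 fold change was 0.06 (SE 0.733, edgeR adjusted p = 0.999) with all libraries and -0.45 (SE 0.136, edgeR unadjusted p = 0.0149, adjusted p = 0.223) without wild-type replicate 3. It was 1.13 (SE 0.907) with the Y-linked term and 0.63 (SE 0.896) with limma-voom without weights. The other importin alpha genes lacked this dip: in wild-type replicate 3, Kpna1, Kpna3, Kpna4 and Kpna6 held 81.8%, 97.0%, 108% and 94.0% of the mean of the other wild-type libraries. Kpna3 and Kpna6, named after their values were seen, did not overlap between the groups, in opposite directions. For Kpna3, the CPM values were 157, 144 and 146 in wild-type replicates 1 to 3 and 142, 123 and 134 in Ythdf2-/- replicates 1 to 3. For Kpna6, wild-type libraries 1, 2 and 3 held 105, 106 and 98.9 CPM and Ythdf2-/- libraries 1, 2 and 3 held 113, 108 and 117 CPM. Their log2 fold changes were -0.16 (SE 0.117) and 0.13 (SE 0.108), each with an edgeR adjusted p of 0.999.

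**Figure D5:**
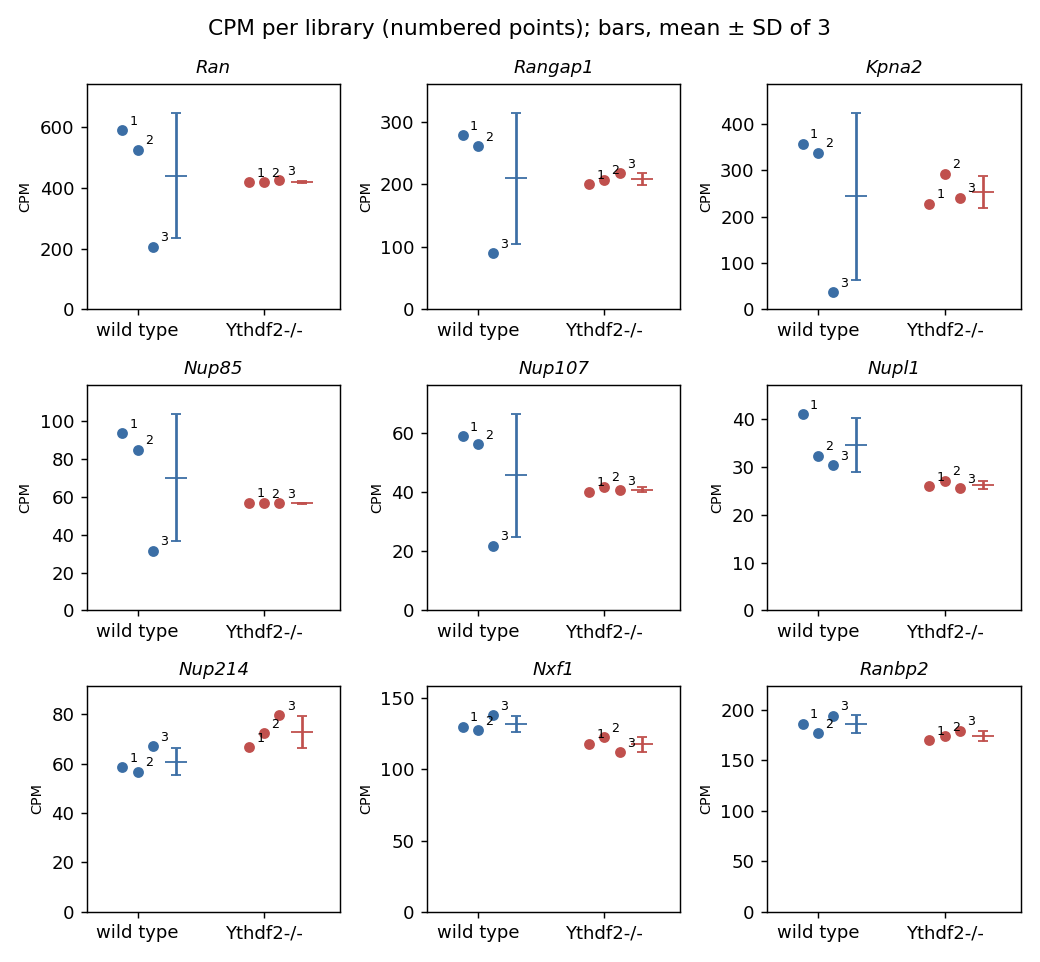
CPM of 9 members in each library, with replicates numbered and bars for the mean ± SD of 3 libraries in each group; the axis of each panel starts at 0. Ran, Rangap1, Kpna2, Nup85 and Nup107 are low in wild-type replicate 3, with the Ythdf2-/- libraries between it and the other wild-type libraries, whereas Nupl1 and Nxf1 separate the groups and Ranbp2 is highest in that replicate.

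The other import receptors are the largest group of members. The sum over Kpnb1, Ipo4, Ipo5, Ipo7, Ipo8, Ipo9, Ipo11, Ipo13, Tnpo1, Tnpo2 and Tnpo3 was 70.0% of wild-type replicates 1 and 2 in wild-type replicate 3 and 89.2% in the Ythdf2-/- mean, and wild-type replicate 3 was the lowest library in 8 of the 11. For Kpnb1, importin beta 1, which carries importin alpha and its cargo through the pore, the wild-type libraries gave 612, 548 and 397 CPM in replicate order and the Ythdf2-/- libraries gave 472, 405 and 547 CPM. The groups overlapped, with a log2 fold change of -0.13 (SE 0.218, edgeR adjusted p = 0.999). Without wild-type replicate 3 it was -0.29 (SE 0.158, edgeR adjusted p = 0.402), with all 3 Ythdf2-/- libraries below both wild-type libraries, the nearest by little, and without wild-type replicate 1 it was 0.00649. Kpnb1 shares 466 bases of exon sequence with Gm11583 on the other strand. For Ipo5, an importer of ribosomal proteins and histones, the CPM values were 442, 424 and 209 in wild-type replicates 1 to 3 and 339.6, 345 and 398 in Ythdf2-/- replicates 1 to 3. Its means were nearly equal (359 ± 129.8 against 361 ± 32.3 CPM, SD, n = 3 each), its log2 fold change was 0.01 (SE 0.297), and without wild-type replicate 3 it was -0.26 (SE 0.119, edgeR adjusted p = 0.327). The remaining log2 fold changes of the group ran from -0.17 for Ipo4 to 0.14 for Tnpo1, the importer of hnRNP proteins, which was at -0.03 without wild-type replicate 3. Of the 11, 0 had an edgeR unadjusted p under 0.05 with all libraries, where 3.63% of all genes did. Without wild-type replicate 3 the count was also 0, where 8.58% of all genes were called lower and 8.03% higher.

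The export receptors had a different order of libraries from the rings. Of Xpo1, Nxf1, Xpo4, Xpo5, Xpo6, Xpo7 and Xpot, only Xpo4 was lowest in wild-type replicate 3, and the summed level there was 90.8% of wild-type replicates 1 and 2, with a Ythdf2-/- mean of 91.4%. For Xpo1, the exporter of proteins with a leucine-rich signal and of ribosomal subunits, wild-type libraries 1, 2 and 3 held 322, 292 and 244 CPM and Ythdf2-/- libraries 1, 2 and 3 held 276, 242 and 294 CPM. The groups overlapped, with a log2 fold change of -0.08 (SE 0.160, edgeR adjusted p = 0.999). It was -0.18 (SE 0.123, edgeR adjusted p = 0.499) without wild-type replicate 3, and its sign changed without wild-type replicate 1 (0.0171) and without Ythdf2-/- replicate 2 (0.00778). For Nxf1, the main receptor for bulk mRNA export and the only one of these that works without Ran, the wild-type libraries gave 130.1, 127 and 138 CPM in replicate order and the Ythdf2-/- libraries gave 118, 123 and 112 CPM. For Xpo7, the CPM values were 128, 125 and 142 in wild-type replicates 1 to 3 and 115, 117 and 110.4 in Ythdf2-/- replicates 1 to 3. In both genes all 3 Ythdf2-/- libraries lay below all 3 wild-type libraries, by little: the log2 fold changes were -0.16 (SE 0.110) and -0.21 (SE 0.114), each with an edgeR adjusted p of 0.999. Xpot, the tRNA exporter, and Xpo5, the exporter of microRNA precursors, were lowest in Ythdf2-/- replicate 2, at 113 and 76.5 CPM, and highest in Ythdf2-/- replicate 3, at 193 and 105 CPM. None of the 7 had an edgeR unadjusted p under 0.05 with all libraries, where 3.63% of all genes did. Nor did any without wild-type replicate 3, where 8.58% of all genes were called lower and 8.03% higher.

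Genes of the same pathway outside the symbol rule were mostly lower in Ythdf2-/- over all 6 libraries. Of 41 such genes, 35 were lower and 6 higher in Ythdf2-/-, where 6808 of all 13112 genes were lower, and with the Y-linked term 25 were lower and 16 higher. Their median log2 fold change was -0.11, against -0.01 over all genes, 0 passed an edgeR adjusted p of 0.05, and 1 had an unadjusted p under 0.05, where 3.63% of all genes did. That gene was Phax, the adaptor for export of small nuclear RNAs. For Phax, wild-type libraries 1, 2 and 3 held 51.9, 58.4 and 61.6 CPM and Ythdf2-/- libraries 1, 2 and 3 held 65.8, 79.6 and 70.6 CPM. The Ythdf2-/- values were all above the highest wild-type value, with a log2 fold change of 0.33 (SE 0.135, edgeR unadjusted p = 0.0477, adjusted p = 0.999). The 5 Ran regulators, Rcc1, Ranbp1, Ranbp3, Rangrf and Nutf2, were all lower in Ythdf2-/-, at log2 fold changes of -0.42 to -0.10, and 4 of them had an unadjusted p under 0.05 without wild-type replicate 3, where 8.58% of all genes were called on the lower side. Rcc1, the exchange factor that loads Ran with GTP on chromatin, held 79.9, 70.9 and 23.3 CPM in the wild-type and 58.1, 47.0 and 54.2 CPM in the Ythdf2-/- libraries. Ranbp1, which assists Rangap1, held 143, 132 and 54.8 and 90.1, 78.8 and 97.2 CPM. Cse1l, the exporter that returns importin alpha to the cytoplasm, held 209.9, 199.9 and 98.8 and 164, 144 and 172 CPM. In these 3 genes, as in Ran and Kpna2, the Ythdf2-/- libraries lay between wild-type replicates 1 and 2 and wild-type replicate 3, which was at 30.9%, 40.0% and 48.2% of wild-type replicates 1 and 2. The 17 mRNA export factors were split in that library: their sum was at 92.1% of that level, with Nxt1, the partner of Nxf1, at 34.0% and Thoc2, a subunit of the THO complex, at 146%, and 8 of the 17 were lowest in it. Without wild-type replicate 3, 14 of the 41 passed an unadjusted p of 0.05 on the lower side, where 8.58% of all genes did, and 1 on the higher side, where 8.03% did, with a median of -0.20 against 0.01 over all genes. The 41 genes were chosen with earlier results of these data known.

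The members were spread over 17 chromosomes and had transcripts with a median of 4825 bases for the 52 members matched to a coding transcript of GENCODE, against 2796 bases over 20268 genes. The length ran below that all-gene median in several members, among them Nup37 at 1277 bases and Kpna2 at 2054 bases. GGACT, a frequent form of the sequence in which m6A is laid down, occurred at a median of 0.983 per kilobase in the members and 1.01 per kilobase over all these genes, and 51 of the 52 held at least 1, against 18050 of the 20268 genes. The density ran from 0 in Nup37 to 3.07 per kilobase in Nup93. Presence of the letters does not show that a site is methylated, and m6A was not analysed here. In all, 14 members shared 16 to 729 bases of exon with 1 or more opposite-strand genes.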

How the data were processed

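Input mRNA of NSPCs from 3 wild-type and 3 Ythdf2-/- samples was analysed. Groups and replicate numbers came from the sample titles. The 6 m6A-IP samples were not analysed here. The submitters' processing notes name Bowtie2 2.2.9, RSEM 1.2.15 and featureCounts, while the methods describe alignment to mm10 with TopHat and RPKM from Cuffnorm. The kit was strand-specific, but the strand setting of the counting is not given in the sources used here. The authors deposited raw counts of reads per gene without normalization, which were the basis of every value except the FPKM alternatives. The authors also deposited, per library, a table with expected counts, TPM and FPKM, in which the expected counts summed to 1.97% to 2.40% of the raw counts. Of these deposited columns, FPKM served only as an alternative, expected counts only for that total, and TPM was not tested. Gene lengths in that deposited table were transcript lengths of unstated averaging.

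Genes were filtered with edgeR's filterByExpr (minimum count 10) and tested with edgeR 4.0.16 in R 4.3.3 (TMM, robust glmQLFit, glmQLFTest), using genotype alone as the term, and p-values were adjusted by Benjamini-Hochberg over all 13112 genes. A positive fold change means a higher level in Ythdf2-/-. RPKM was TMM-scaled CPM divided by the listed transcript length in kilobases, averaged over libraries. Alternatives were other scaling factors, other filters, DESeq2 1.42.0, limma-voom (limma 3.58.1) with and without sample quality weights, a replicate block, a term for Y-linked reads (a sum above 3 on 4 genes), limma on log2(FPKM + 1) and log2(FPKM + 0.1), and leaving out each library. The log2(FPKM + 1) scale understates the change of low genes. Scripts were tested on simulated data. Positions and exon overlaps came from GRCm38.p6 and GENCODE, in which 52 of 53 members were matched to a coding transcript. Other computations used Python 3.11.15, numpy 2.4.6 and pandas 2.3.3, and plots matplotlib 3.10.9.

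Named with values in every library were the most highly expressed member of each role group, members with an unadjusted p under 0.05, the 5 largest and 3 smallest fold changes, the Ran cycle genes, and related genes with an unadjusted p under 0.05. Nup107, Nup43, Nup214, Ranbp2, Kpna3, Kpna6, Nxf1, Xpo7, Xpot, Xpo5, Nup54, Rcc1, Ranbp1, Cse1l, Nxt1, Thoc2, Pom121, Ndc1, Seh1l and Sec13 were named after their values were seen. The members and lists were chosen with earlier results of these data known.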

Additional observations from a re-analysis of the deposited data

How the results depend on the processing

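The count of members with an unadjusted p under 0.05, which was 1 with all libraries, was 0 with no scaling factor, 0 with no filter, 17 with limma-voom and sample quality weights (16 lower, where 14.4% of all genes were, and 1 higher, where 15.5% were), 2 with the Y-linked term and 0 with either FPKM pseudocount, and leaving out 1 library at a time gave 0 to 14, the 14 without wild-type replicate 3. That gene, Nupl1, was no longer past the threshold with no scaling factor, no filter, the replicate block, the Y-linked term or FPKM, or without any library other than wild-type replicate 3. Its log2 fold change, -0.40 with all libraries, was then -0.38, -0.39, -0.39 and -0.36 in the first 4 of these, -0.42 and -1.31 with an FPKM pseudocount of 1 and 0.1, and -0.26 to -0.44 on leaving out each of those libraries. The count past an adjusted p of 0.05 was 1 with quality weights in place of 0 and was 0 in every other alternative run. The count of non-overlapping members, 5, became 7 to 27 when 1 library was left out, and 27 without wild-type replicate 3, where 20.0% of all genes were lower and 18.9% higher without overlap. The median log2 fold change of the members lay between -0.18 and 0.20 in all alternatives, within 0.251 of -0.03, the SD of the members' median log2 CPM between libraries of a genotype, which includes wild-type replicate 3. The tally was 40 of 51 lower without wild-type replicate 3 and 38 of 51 higher with the Y-linked term. The count of related genes at an unadjusted p under 0.05, 1, became 0 with DESeq2, 22 with quality weights, 0 with the Y-linked term, 0 with either FPKM pseudocount and 0 to 15 on leaving out 1 library. The cause of these differences was not tested.

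Same-numbered libraries of the genotypes did not deviate together, with correlations of their deviations from the group means of -0.26, -0.25 and -0.41. The wild-type mean includes replicate 3, which stood apart and so shapes the deviations of all wild-type libraries. These correlations therefore cannot show whether same-numbered libraries were paired. With the replicate number as a block, 0 members and 0 related genes had an unadjusted p under 0.05, and the log2 fold change changed sign for Nup93 (0.0365), Ran (0.0640) and Rangap1 (0.14).

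Of 305 values of single genes under an alternative, 245 kept direction and side of the threshold, 1 became stronger (Nup85 with quality weights) and 59 changed sign. Nup210l, Nup50, Nup98 and Nupl1 kept theirs throughout. Leaving out 1 library gave -0.26 to 0.19 for Ipo5, -0.45 to 0.44 for Kpna2, -0.29 to 0.00649 for Kpnb1, -0.0675 to 0.0625 for Nup153, -0.29 to 0.33 for Nup62, -0.28 to 0.0289 for Nup88, -0.31 to 0.16 for Nup93, -0.41 to 0.20 for Ran, -0.37 to 0.25 for Rangap1 and -0.18 to 0.0171 for Xpo1. With quality weights the sign changed for Ipo5 (-0.28), Kpna2 (-0.50), Nup153 (-0.0427), Nup210 (-0.0810) and Nup62 (-0.26). With limma-voom it changed for Nup93 (0.0402), Ran (0.0830) and Rangap1 (0.17). With the Y-linked term it changed for Kpnb1 (0.0283), Nup85 (0.0839), Nup88 (0.00803), Nup93 (0.26), Ran (0.31), Rangap1 (0.44) and Xpo1 (0.0140). With FPKM and a pseudocount of 1 or 0.1 it changed for Kpnb1 (0.14 and 0.17), Nup62 (-0.11 and -0.16), Nup85 (0.10 and 0.14), Nup93 (1.48 and 3.49), Rangap1 (0.16 and 0.17), Tpr (0.17 and 0.25) and Xpo1 (0.68 and 2.39), where the median of all genes was 0.10 and 0.13. Upper-quartile factors gave -0.00047 for Ipo5 and -0.0028 for Nup153, and for Nup153 RLE factors gave -0.0059, a minimum of 10 counts in every library -0.00074 and DESeq2 -0.0062. With no scaling factor Rangap1 was at 0.0043. Non-overlap was not recounted where only the test changed.

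The comparisons are limited by the spread between the 3 wild-type libraries, of which wild-type replicate 3 was the lowest of the 6 libraries in 34 members and the highest in 6. Depth was ample for most genes: all but Nup62cl, Kpna7 and Nup210l held at least 49 reads in every library. At 2 libraries, the wild-type group without replicate 3 gives a weak estimate of its own spread.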
